A study of Homo sapiens with 4 samples.

Results

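Spliceosomal U RNAs are the short, structured RNAs at the heart of the particles that remove introns from pre-mRNA. The rows described here were those of the count table whose gene symbol starts with RNU and a digit and whose counts over the 4 libraries sum to at least 100. There were 31 such rows among 181 RNU rows and 40205 genes in all. They fell into 12 U types, of which 9 are spliceosomal, and RefSeq (GRCh38.p14) classed 12 of the 31 rows as pseudogenes. Of the symbols, 27 matched RefSeq directly and 4 by an older symbol. The label of a spliceosomal set did not hold for 3 rows. RNU105A is the older name of SNORA73B, a box H/ACA small nucleolar RNA, RNU3P3 is the older name of SNORD3P3, a relative of the U3 small nucleolar RNA, and RNU7-1 makes the U7 RNA, which acts in the processing of histone mRNA ends.

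The 4 libraries came from SKOV3, an established human ovarian cancer cell line grown in RPMI medium with fetal bovine serum. In the treated group (2 libraries) the cells had been exposed for 24 h to 80 µg/mL of 20(S)-Rg3, a saponin of ginseng, and the other group is labelled as control (2 libraries), with no agent or vehicle named. The labels speak of pooled RNA for each library and do not say whether the replicates were separate cultures, so a p-value reflects how these libraries vary, and that variation may be technical. Depth was 30132517 and 24571619 counts in the Rg3 libraries and 24482846 and 26731913 counts in the control libraries. The 31 rows took 1.78% and 2.38% of all counts with Rg3, against 2.23% and 2.30% in the controls. Of the epithelial markers, KRT8, KRT18 and ERBB2 had over 1000 counts in each library, PAX8 had 8 to 18 counts, KRT19 had 0 to 2 and EPCAM was at 0. Of the markers of other cells, the leukocyte genes PTPRC and CD68 had 0 to 3 and 252 to 533 counts, the endothelial genes PECAM1 and VWF 1 to 7 and 6 to 17, and the fibroblast genes LUM, DCN and COL1A1 0 to 2, 2 to 20 and 39 to 144. In RNA from whole cultures, fewer cells that make an RNA and less of it per cell cannot be told apart.

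U1 pairs with the start of an intron, U2 with its branch point, and U4, U5 and U6 join as a single particle, after which U6 and U2 form the catalytic centre and U5 holds the exons. A rarer class of introns uses U11, U12, U4atac and U6atac in place of U1, U2, U4 and U6, while U5 serves both. Most of these RNAs are made by RNA polymerase II from compact promoters bound by the SNAPc complex, whereas U6 and U6atac are made by RNA polymerase III. Each type has several gene copies, and the human genome holds many more pseudogenes of them.

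RefSeq promoter windows (GRCh38.p14, 250 bases before to 50 after the start of a gene) covered the start of 2 members through a neighbouring gene. RNU1-28P is shown because it was the largest U1 row of Rg3 replicate 1, although it is classed as a pseudogene. Its start lies in the window of LOC105370449, chr14:34556359-34556658 on the minus strand, and the capitals mark an octamer-like motif and the first 31 bases of the RNA.
RNU1-28P window: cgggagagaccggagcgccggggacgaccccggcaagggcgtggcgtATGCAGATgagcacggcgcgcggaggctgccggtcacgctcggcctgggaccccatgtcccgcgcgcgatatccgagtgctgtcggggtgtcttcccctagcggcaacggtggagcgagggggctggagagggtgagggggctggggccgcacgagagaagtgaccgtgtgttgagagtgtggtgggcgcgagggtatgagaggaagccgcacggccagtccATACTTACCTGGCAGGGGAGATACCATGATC
In the start of that RNA the capitals mark bases 3 to 11, the stretch of U1 that pairs with the start of an intron.
RNU1-28P start: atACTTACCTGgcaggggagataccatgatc
The motif searched on both strands was ATGCANAT, a relaxed form of the octamer bound by POU2F1, and its only match in this window began 222 bases before the first base of the RNA. It was present in 3.65% of 35116 RefSeq windows. TATAAA, searched on both strands, had 0 matches in the window and was present in 11.5% of windows. RNU7-1 is shown as the member of another function, whole and 63 bases long, from the window of C12orf57, chr12:6943772-6944071 on the plus strand.
RNU7-1: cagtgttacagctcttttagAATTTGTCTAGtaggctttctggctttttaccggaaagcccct
Its capitals mark AATTTGTCTAG, the ring-binding site particular to U7 among the U RNAs, which was found on either strand in 0.00854% of the windows.

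RefSeq lengths of the 31 rows ran from 63 to 216 bases. By the summed counts that chose the rows, U2 led with 1238832 counts, followed by U1 with 398792, U5 with 255588, RNU105A with 226811, U4 with 71554 and U12 with 71244. U11 had 9874 counts, U6atac 5952 and U4atac 1495. U6 was barely counted. Of 45 U6 rows 24 had no count, the U6 genes RNU6-1, RNU6-2 and RNU6-8 had 7, 7 and 6 counts in all, and only the pseudogene RNU6-31P passed the minimum. The rows nearest to the minimum were RNU1-13P (113 counts), RNU6-31P (119) and RNU7-1 (128) inside it, and RNU6-14P (90), RNU12-2P (73) and RNU86 (60) outside it. The 150 rows outside it held 544 counts together, against 2280543 in the 31 rows.

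Levels are given as CPM, counts relative to the size of the library after TMM scaling. Per kilobase of RefSeq length, RNU2-2P, now named RNU2-2 and classed as a gene, stood highest at a mean of 60476 CPM per kilobase with Rg3 and 62372 in controls. RNU1-1 was at 4287 with Rg3 and 11840 in controls, RNU5E-1 at 7502 and 7798, and RNU12 at 4547 and 4618. The minor spliceosome RNAs other than U12 were lower, with RNU11 at 730 with Rg3 and 675 in controls, RNU6ATAC at 359 and 544, and RNU4ATAC at 102 and 118 CPM per kilobase.

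**Figure D1:**
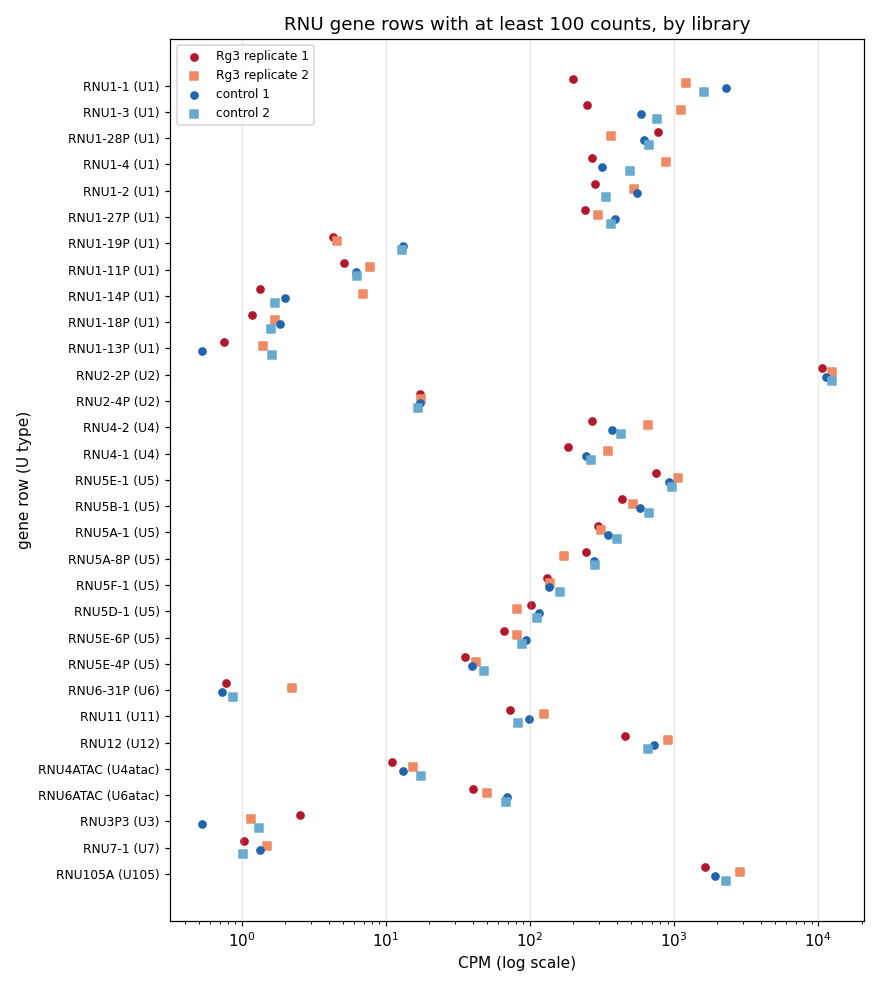
CPM on a log axis for each of the 31 RNU rows, grouped by U type, with 1 point per library (red and orange for Rg3, blues for control). RNU1-19P and RNU6ATAC show both Rg3 libraries below both controls, while RNU1-1, RNU1-3 and RNU1-4 spread widely between the Rg3 libraries.

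The Rg3 libraries were compared with the controls to ask whether the exposure changed the level of U RNA. No member was called in edgeR's quasi-likelihood test, with 0 of 31 higher and 0 of 31 lower, where 5 of all 16323 genes tested were called (0.0306%), all 5 higher. At an unadjusted p under 0.05, 0 members were higher and 4 were lower, beside 1.83% and 2.9% of all genes (4.73% in either direction). DESeq2 called 0 members higher and 1 lower, beside 0.26% and 0.12% of all genes. All 31 members passed the filter on low counts. Of the log2 fold changes 12 were positive and 19 negative, with a median of −0.06, beside 0.01 over all genes tested. The median was −0.26 over the 276 small nucleolar RNA genes tested, among them RNU105A and RNU3P3. In 9 members both Rg3 libraries lay below both controls in CPM and in 1 both lay above, which is 29.0% and 3.23% of the members beside 17% and 15.3% of all genes tested (32.3% in either direction).

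The row with the smallest p was RNU1-19P, a U1 pseudogene that lies within BMPR1A, a gene for a BMP receptor. It had 4.32 and 4.61 CPM in the Rg3 libraries, against 13.2 and 12.9 CPM in the controls. The groups did not overlap and their replicates lay close together. Its log2 fold change was −1.55 (SE 0.19), with an adjusted p of 0.0686 in edgeR, so it did not pass. Over 10 alternatives its log2 fold change ran from −1.59 to −1.497 and its adjusted p from 3.31e-08 to 0.0900, and 7 of them called it, among them DESeq2 (adjusted p = 8.83e-06) and each of the 4 fits that left out a library. The overlapping BMPR1A row had 598 and 507 counts with Rg3 and 456 and 537 in controls, while RNU1-19P had 133 and 111 with Rg3 and 325 and 341 in controls. The host row thus did not show the lower level of the pseudogene row.

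RNU6ATAC, the polymerase III gene of U6atac, had 40.3 and 50.3 CPM with Rg3, against 68.9 and 68.2 CPM in controls. Both Rg3 libraries lay below both controls, which nearly coincided. Its log2 fold change was −0.60 (SE 0.15, unadjusted p = 0.00502, edgeR adjusted p = 0.711). It was called in 3 of 10 alternatives, without Rg3 replicate 1 (−0.44), without Rg3 replicate 2 (−0.77) and with the replicate number as a block (−0.61, adjusted p = 0.0282). RNU4ATAC, whose RNA pairs with U6atac, had 11.04 and 15.4 CPM with Rg3, against 13.2 and 17.4 CPM in controls, and the groups overlapped. Within a library, which needs no scaling, the counts of U6atac over U4atac came to 3.65 and 3.27 with Rg3 and to 5.21 and 3.93 in controls.

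The other RNAs of the minor spliceosome did not separate the groups. RNU12, the counterpart of U2, had 459 and 905 CPM with Rg3, against 725 and 660 CPM in controls. RNU11, the counterpart of U1, had 73.0 and 124 CPM with Rg3, against 99.1 and 83.1 CPM in controls. In both the 2 Rg3 libraries lay on opposite sides of the 2 controls. The log2 fold changes were −0.02 (SE 0.29) for RNU12 and 0.11 (SE 0.24) for RNU11, each with an edgeR adjusted p of 0.999. Leaving out Rg3 replicate 1 gave 0.39 for RNU12 and 0.45 for RNU11, and of these RNU11 was called. Leaving out Rg3 replicate 2 gave −0.59 for RNU12, which was called, and −0.32 for RNU11.

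U1, summed over 11 rows, was at 2032 and 4420 CPM in the Rg3 libraries, against 4762 and 4255 CPM in the controls. Only Rg3 replicate 1 stood apart, and the log2 ratio of the group means of −0.48 was within the spread between the Rg3 libraries. The ratio became −0.03 when Rg3 replicate 1 was left out and −1.15 when Rg3 replicate 2 was. The 4 U1 genes together had 1000 and 3739 CPM with Rg3, against 3737 and 3192 CPM in controls, and the 7 pseudogene rows had 1032 and 680 CPM with Rg3, against 1025 and 1063 CPM in controls. As counted, the low U1 level of Rg3 replicate 1 thus lay in the rows of the 4 genes and not in the sum of the pseudogene rows. Near-identical copies can share reads, so this split is uncertain.

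RNU1-1, the leading U1 row in the controls, had 199 and 1207 CPM with Rg3, against 2280 and 1603 CPM in controls. Both Rg3 libraries were below both controls, but the log2 ratio of Rg3 replicate 1 over Rg3 replicate 2 was −2.60. The log2 fold change was −1.47 (SE 0.67, edgeR adjusted p = 0.999). It became −0.68 when Rg3 replicate 1 was left out and −3.28 when Rg3 replicate 2 was. RNU1-1 was called in edgeR with the replicate block (−1.96, adjusted p = 5.37e-04) and without a filter on low counts. It was not called in DESeq2 (−1.46) or under any of the other scalings. RNU1-3 had 250 and 1125 CPM with Rg3, against 592 and 759 CPM in controls, so the Rg3 libraries lay on both sides of the controls. RNU1-4 had 271 and 878 CPM with Rg3, against 316 and 493 CPM in controls. RNU1-2 had 280 and 530 CPM with Rg3, against 549 and 337 CPM in controls. None of these 3 genes separated the groups.

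The pseudogene row RNU1-28P went the other way between the Rg3 libraries. It had 779 and 362 CPM with Rg3, against 614 and 674 CPM in controls. RNU1-27P, its neighbour within the same non-coding gene, had 240 and 296 CPM with Rg3, against 387 and 365 CPM in controls, with a log2 fold change of −0.49 (SE 0.15, unadjusted p = 0.0138, edgeR adjusted p = 0.921). In RNU1-27P both Rg3 libraries lay below both controls. The weaker pseudogene rows RNU1-11P, RNU1-13P, RNU1-14P and RNU1-18P had group means of 1.08 to 6.45 CPM and overlapping groups. Of these RNU1-14P had the largest log2 fold change, 1.14 (SE 0.66), from 1.33 and 6.93 CPM with Rg3 against 1.99 and 1.70 CPM in controls, and it was −0.47 without Rg3 replicate 2.

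Shares of the U1 counts show the same rows without any scaling between libraries. RNU1-1 held 9.80% (Wilson 95% interval 9.57% to 10.04%) and 27.3% (27.0% to 27.6%) of the U1 counts in the Rg3 libraries, against 47.9% (47.6% to 48.2%) and 37.7% (37.4% to 38.0%) in the controls. RNU1-28P held 38.4% and 8.20% with Rg3, against 12.9% and 15.8% in controls. RNU1-3 held 12.3% and 25.5% with Rg3, against 12.4% and 17.8% in controls. The intervals do not meet between replicates for RNU1-1 and RNU1-28P, so counting error does not cover the differences between libraries of the same group. These rows are near-identical copies, and how the authors assigned reads that match several of them was not given in the sources used here, so the share of a single copy is uncertain.

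**Figure D2:**
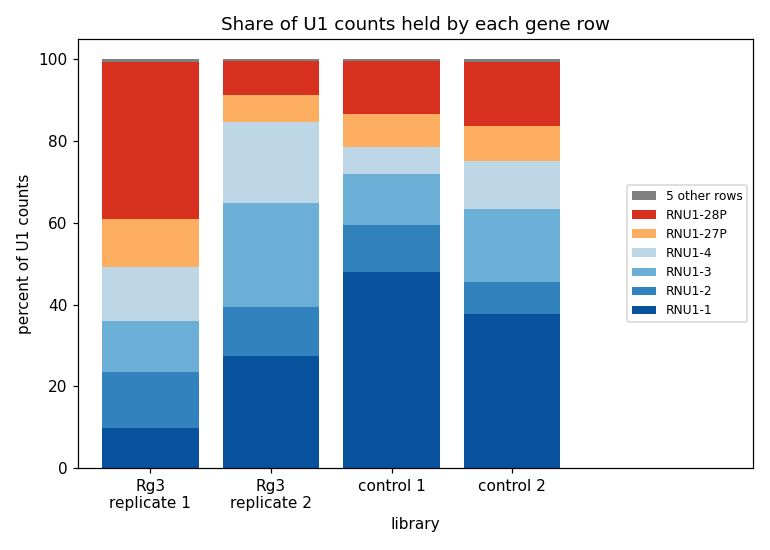
Stacked bars of the percent of U1 counts held by each row in each of the 4 libraries, with the 4 U1 genes in blues, RNU1-27P and RNU1-28P in orange and red, and 5 weak rows in grey. RNU1-1 takes 9.80% and 27.3% of the bar in the Rg3 libraries and 47.9% and 37.7% in the controls, and RNU1-28P takes 38.4% of the bar of Rg3 replicate 1.

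Variant U1 genes are named RNVU1 and can share reads with U1. RNU1-13P, among the 11 U1 rows, is the older symbol of RNVU1-2, and 4 further rows of the table carry an RNVU1 symbol. With these 4 rows added, U1 was at 3129 and 6312 CPM in the Rg3 libraries, against 6172 and 5490 CPM in controls, a log2 ratio of −0.30. The largest of them, RNVU1-18, had 661 and 1029 CPM with Rg3, against 423 and 364 CPM in controls. Both Rg3 libraries lay above both controls, with a log2 fold change of 1.10 (SE 0.22, edgeR adjusted p = 0.439). RNVU1-1 lay the other way, at 1.59 and 5.07 CPM with Rg3, against 5.36 and 10.2 CPM in controls, with no overlap (−1.25, SE 0.52, edgeR adjusted p = 0.999). The groups overlapped for RNVU1-7, with 168 and 697 CPM with Rg3, against 749 and 564 CPM in controls (−0.60, SE 0.54), and for RNVU1-9, with 266 and 160 CPM with Rg3, against 233 and 297 CPM in controls (−0.31, SE 0.24).

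U2 did not separate the groups. RNU2-2P, nearly all of the U2 count, had 10629 and 12473 CPM with Rg3, against 11418 and 12409 CPM in controls, with a log2 fold change of −0.04 (SE 0.15, edgeR adjusted p = 0.999). The pseudogene RNU2-4P had 17.3 and 17.5 CPM with Rg3, against 17.2 and 16.8 CPM in controls. It was the only member whose Rg3 libraries both lay above both controls, by a log2 fold change of 0.04 (SE 0.15). Only 2 RNU rows were of type U2, RNU2-2P and RNU2-4P, and none carried the symbol RNU2-1. Whether reads of RNU2-1 were counted in these rows was not tested. The gene that overlaps RNU2-2P, WDR74, had 2433 and 1815 counts with Rg3 and 1889 and 1851 in controls.

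U4, which keeps U6 inactive until the spliceosome is assembled, was measured by 2 genes. RNU4-2 had 270 and 654 CPM with Rg3, against 368 and 431 CPM in controls, and RNU4-1 had 182 and 348 CPM with Rg3, against 244 and 267 CPM in controls. In both genes Rg3 replicate 1 was the lowest library and Rg3 replicate 2 the highest. The log2 fold changes were 0.21 (SE 0.36) for RNU4-2 and 0.05 (SE 0.27) for RNU4-1, neither of which passed. Leaving out Rg3 replicate 1 gave 0.72 for RNU4-2 and 0.45 for RNU4-1, both called, and leaving out Rg3 replicate 2 gave −0.57 and −0.48, both called in the other direction. Within its type RNU4-2 held 59.7% (58.9% to 60.5%) and 65.3% (64.7% to 65.9%) of the U4 counts with Rg3, against 60.2% (59.4% to 60.9%) and 61.8% (61.1% to 62.5%) in controls.

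U5, the RNA that both spliceosomes share, had a negative log2 fold change in all 8 rows, of which 5 had groups that did not overlap, beside 17% of all genes tested lower with no overlap, and 0 were called. The rows are copies of one RNA and can share reads. The U5 sum was 2053 and 2417 CPM with Rg3, against 2512 and 2735 CPM in controls. Both Rg3 libraries lay below both controls by a log2 ratio of −0.23, and leaving out 1 library moved it between −0.35 and −0.12. The 5 U5 genes together had 1706.1 and 2120.5 CPM with Rg3, against 2101.3 and 2317.6 CPM in controls, so the groups overlapped. The 3 U5 pseudogene rows together had 347 and 296 CPM with Rg3, against 411 and 417 CPM in controls, with no overlap. Of the genes, RNU5B-1 had 435 and 520 CPM with Rg3, against 584 and 673 CPM in controls, with a log2 fold change of −0.40 (SE 0.16, unadjusted p = 0.0369, edgeR adjusted p = 0.999). RNU5A-1 had 296 and 311 CPM with Rg3, against 346 and 404 CPM in controls (log2 fold change −0.31, SE 0.14). RNU5D-1 had 101 and 80.7 CPM with Rg3, against 116 and 112 CPM in controls (−0.32, SE 0.15). These 3 genes separated the groups by less than 2-fold, and none passed.

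The largest U5 row, RNU5E-1, did not separate the groups, at 743 and 1072 CPM with Rg3, against 920 and 967 CPM in controls (log2 fold change −0.06, SE 0.19). RNU5F-1 had 131 and 137 CPM with Rg3, against 136 and 161 CPM in controls. Of the U5 pseudogenes, RNU5A-8P had 246 and 173 CPM with Rg3, against 278 and 281 CPM in controls (−0.42, SE 0.18), and RNU5E-4P had 35.5 and 41.9 CPM with Rg3, against 39.3 and 47.8 CPM in controls. The sign of 7 of the 8 U5 rows held in all 10 alternatives, the exception being RNU5E-1, which was at 0.19 without Rg3 replicate 1. The pseudogene RNU5E-6P had 65.5 and 81.5 CPM with Rg3, against 93.6 and 88.4 CPM in controls, with no overlap (log2 fold change −0.31, SE 0.15, edgeR adjusted p = 0.999).

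**Figure D3:**
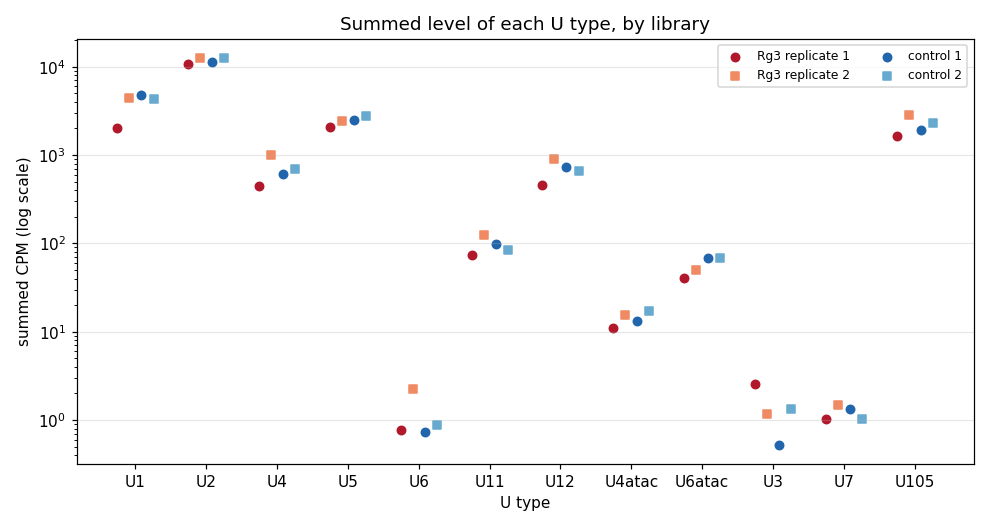
Summed CPM of each U type on a log axis, with 1 point per library (Rg3 in red and orange, control in blues). U5 and U6atac are the types whose Rg3 points both lie below both controls, where 17% of all genes tested do so. Rg3 replicate 1 is the lowest library in every type but U3, U6 and U7.

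Ratios between types within a library do not depend on scaling. The counts of U5 over U2 came to 0.193 and 0.194 with Rg3 and to 0.220 and 0.220 in controls. The counts of U1 over U2 came to 0.191 and 0.354 with Rg3, against 0.416 and 0.343 in controls, and those of U4 over U2 to 0.0424 and 0.0802 with Rg3, against 0.0535 and 0.0562 in controls. Only the first of these 3 ratios separated the groups. The counts of U12 over U11 were 6.29 and 7.29 with Rg3, against 7.32 and 7.94 in controls. Of 8 ratios computed, 3 were lower with Rg3 with no overlap, U5 over U2, U12 over U11 and U6atac over U4atac, and 0 were higher. Of all genes tested, 17% were lower in CPM and 15.3% higher with no overlap, but these shares are for single genes. The like share for ratios between sums was not computed. Several of the ratios share a type sum, so they are not independent. With 2 libraries per group an exact permutation test cannot give a two-sided p below 0.333, so these ratios are given as descriptions.

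The rows of other or doubtful kind showed no separation of the groups. RNU105A, the small nucleolar RNA, had 1650 and 2846 CPM with Rg3, against 1911 and 2284 CPM in controls. RNU7-1 had 1.04 and 1.49 CPM with Rg3, against 1.34 and 1.02 CPM in controls. RNU3P3 had 2.53 and 1.16 CPM with Rg3, against 0.528 and 1.32 CPM in controls (log2 fold change 1.001, SE 0.53), and RNU6-31P had 0.779 and 2.24 CPM with Rg3, against 0.731 and 0.870 CPM in controls (0.88, SE 0.53). All 4 had an edgeR adjusted p of 0.999.

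Much of the spread lay between the Rg3 replicates. Rg3 replicate 2 was above Rg3 replicate 1 in 27 of 31 members. Rg3 replicate 1 over 2 had a median log2 ratio of −0.522 in members, 0.012 in protein-coding genes and 0.02 in small nucleolar RNA genes. Many members are copies that can share reads, so they are not independent. Among the 23 members with at least 1000 counts, the median absolute log2 difference was 0.51 between the Rg3 libraries and 0.21 between the controls, beside 0.25 and 0.09 over 8957 genes with as many counts. Of those 23 members, 5 differed more than 2-fold between the Rg3 libraries and 0 between the controls, beside 1.35% and 0.134% of the genes. Protein-coding genes had 59.8% and 57.8% of the counts with Rg3 and 57.6% and 57.2% in controls, and small nucleolar RNA had 14.5% and 16.5% with Rg3 and 16.2% and 15.6% in controls. Rg3 replicate 1 was thus the library with the smallest share of U RNA and of small nucleolar RNA, and the part of this in the results was not tested. When Rg3 replicate 1 was left out edgeR called 7 members higher and 6 lower, beside 2.53% and 2.69% of all genes, and when Rg3 replicate 2 was left out it called 0 higher and 10 lower, beside 1.8% and 0.879%. Leaving out control 1 gave 0 higher and 2 lower, beside 0.247% and 0.388%, and leaving out control 2 gave 0 and 2, beside 0.184% and 0.107%. With the replicate block 0 were called higher and 3 lower, beside 0.423% and 0.527%. Without a filter on low counts 1 was called higher and 2 lower, beside 0.351% and 0.483%. With TMM factors of protein-coding genes alone 0 and 0 were called, beside 0.0368% and 0.0123%. Of 31 members, 13 kept their sign in all 10 alternatives.

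**Figure D4:**
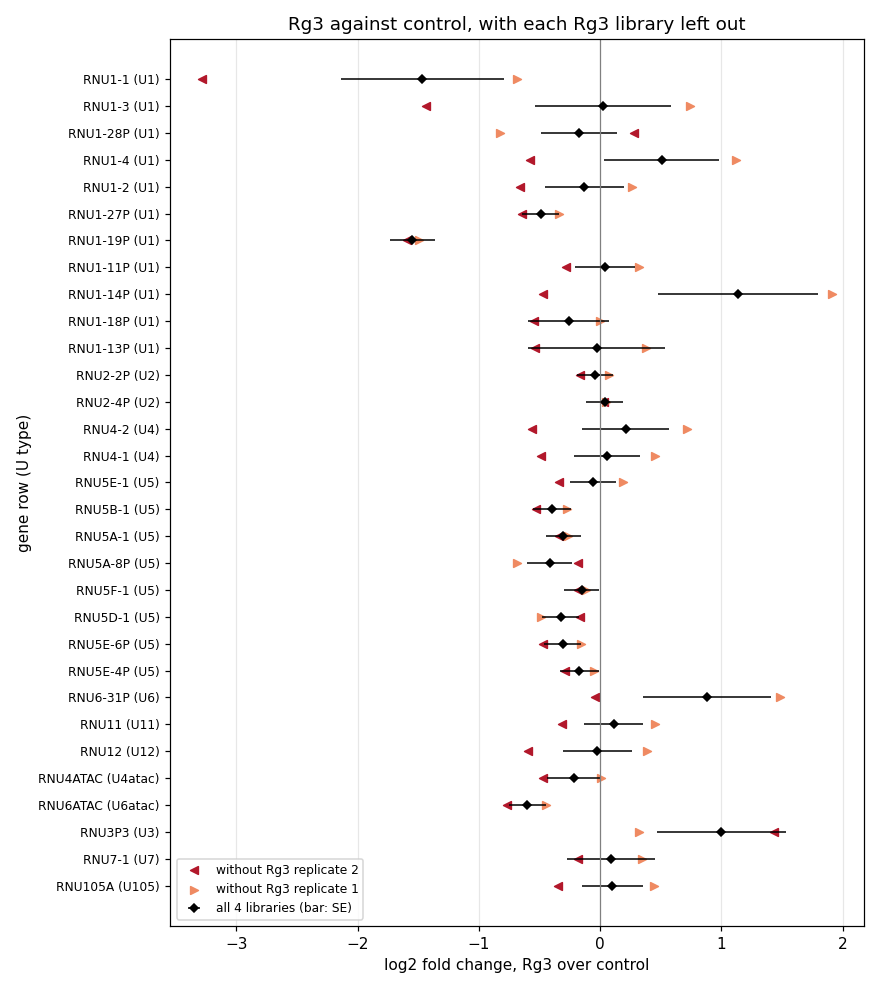
The log2 fold change of Rg3 over control for each member from edgeR (black, bars are SE) and the value without Rg3 replicate 2 (red) or without Rg3 replicate 1 (orange). For RNU1-19P and RNU6ATAC all values lie below 0, whereas those of RNU1-3, RNU4-1, RNU4-2 and RNU12 change sign with the library left out.

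The proteins that make and carry these RNAs were read from 9 lists, of which 115 genes had a row and were tested. None was called (0 higher, 0 lower), in edgeR or in DESeq2, and at an unadjusted p under 0.05 edgeR had 1 higher and 0 lower, beside 1.83% and 2.9% of all genes. Their median log2 fold change was 0.08, with 86 positive and 29 negative, beside 0.01 over all genes tested, where 8573 of 16323 were positive. Without Rg3 replicate 2 the lean towards positive values was smaller, with 63 of 115 positive and a median of 0.013. Over all genes in that fit 8154 of 17065 were positive, with a median of −0.013. The exception at the unadjusted threshold was SNRPF, of the Sm ring that binds most U RNAs, with 17.2 and 20.0 CPM with Rg3, against 14.4 and 14.0 CPM in controls (log2 fold change 0.39, SE 0.16, unadjusted p = 0.0449, edgeR adjusted p = 0.999). All 8 Sm ring genes had a positive log2 fold change, with a median of 0.07, but 2 of 8 had one without Rg3 replicate 2, and SNRPG had the next smallest p (0.32, SE 0.24). Of the LSm ring of U6, 5 of 6 tested genes were positive, but 1 of 6 without Rg3 replicate 2, with LSM7 at 0.22 (SE 0.16) and LSM6 at 0.16 (SE 0.24).

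Proteins of the single particles gave the same picture of small differences, none of them called. Of 8 U1 proteins 5 were positive, with a median of 0.05, but 3 without Rg3 replicate 2, with a median of −0.058, and LUC7L3 and SNRPC, which act in the choice of the intron start, had −0.14 (SE 0.15) and 0.17 (SE 0.18). Of 12 U2 proteins 7 were positive, 6 to 8 under the other scalings and 5 without Rg3 replicate 2, and SNRPB2 and SNRPA1, which bind a loop of U2, had 0.32 (SE 0.22) and 0.21 (SE 0.17). Of 16 proteins of U4, U6 and U5 13 were positive, with a median of 0.06. Without Rg3 replicate 1 this fell to 9, with a median of 0.01, and without Rg3 replicate 2 to 12, with a median of 0.043. In this list PPIH, a cyclophilin, was at 0.21 (SE 0.16) and TXNL4A, a U5 protein, at 0.20 (SE 0.18). Of 8 proteins of U11 and U12 5 were positive, with SNRNP48 at 0.32 (SE 0.16) and PDCD7 at 0.31 (SE 0.16).

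Among 27 genes of U RNA transcription 22 were positive, with a median of 0.08, and 16 without Rg3 replicate 2, with a median of 0.015. INTS7 and INTS3, subunits of the Integrator complex that cuts the ends of U RNA precursors, had 0.26 (SE 0.13) and 0.20 (SE 0.15). Among 20 genes of export, assembly and import 16 were positive, with a median of 0.14, and 13 without Rg3 replicate 2, with a median of 0.043, while GEMIN2 and STRAP, of the SMN complex that loads the Sm ring, had 0.27 (SE 0.16) and 0.24 (SE 0.14). Of 10 genes of later processing 5 were positive, with SSB, the La protein that binds the ends of polymerase III transcripts, at 0.31 (SE 0.17) and MEPCE, which caps 7SK RNA, at 0.21 (SE 0.15). These values are log2 fold changes of Rg3 over control, each with an edgeR adjusted p of 0.999.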

How the data were processed

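The libraries were made from ribosome-depleted total RNA, fragmented and not selected for polyadenylated RNA, per the labels' protocols. The authors deposited raw read counts per gene symbol in 1 table with a column per library, and these counts were used as deposited. Build GRCh37 comes from the submitters' processing notes; no aligner, counter, strand setting or treatment of reads with several matches is given in the sources used here, and the labels name both an Illumina and an Ion Torrent instrument. Near-identical U RNA copies can therefore share reads, so single rows are uncertain. RNU rows were matched to RefSeq (GRCh38.p14) for class, length and overlapping genes only.

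The 2 groups were compared by edgeR 4.0.16 (R 4.3.3), with filterByExpr (minimum count 10, minimum total 15), TMM scaling, a quasi-likelihood test of treatment alone and Benjamini-Hochberg adjustment over 16323 genes. Calls were made at an adjusted p under 0.05. CPM are counts relative to the TMM-scaled library size. DESeq2 1.42.0, other scalings, no filter, a replicate block and omission of each library were alternatives. Sums by U type were given with no test, since an exact permutation test of 2 against 2 libraries cannot give a two-sided p below 0.333. The procedure was tested on simulated data. Intervals of shares are Wilson 95% intervals and cover counting error only. Members and lists were chosen with earlier results of these data known. The text names every member that is no pseudogene, the 3 largest rows of each type, the 5 smallest p in each direction, the rows next to the minimum total and the 2 smallest p of each protein list. RNU1-11P, RNU1-18P, RNU5E-4P and RNU5E-6P were named to account for every member, and the RNVU1 rows, BMPR1A and WDR74 after their values were seen. An item withheld for evaluation is not reported here.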

Additional observations from a re-analysis of the deposited data

How the results depend on the processing

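With 2 libraries per group the number of calls depended on the settings. Over all genes edgeR called 5 higher and 0 lower. TMM of protein-coding genes gave 6 and 2, no filter on low counts 90 and 124, the replicate block 69 and 86, and DESeq2 37 and 17. Omission of Rg3 replicate 1 gave 428 and 456, that of Rg3 replicate 2 gave 307 and 150, that of control 1 gave 42 and 66, and that of control 2 gave 31 and 18. Such fits assume that a lone library varies like the other group. For the U RNA members, with 0 higher and 0 lower in the main test, the counts were 1 and 2 with no filter, 0 and 1 with DESeq2, 0 and 3 with the replicate block (RNU1-1, RNU1-19P and RNU6ATAC), and 0 to 7 higher and 2 to 10 lower when 1 library was omitted. Splicing factors had 0 calls in the main test, with no filter, with DESeq2 and with the replicate block. Their median log2 fold change, 0.08 in the main test, ran from 0.013 to 0.118 when 1 library was omitted. The median over all genes ran from −0.013 to 0.029 in the same fits. Of the members, 18 changed sign at least once and 13 kept it in all 10 alternatives. With the replicate block RNU1-3 was at −0.34, RNU4-1 at −0.017 and RNU1-13P at 0.083. When each library was omitted in turn, log2 fold changes ran from −1.44 to 0.74 for RNU1-3, −0.66 to 0.27 for RNU1-2, −0.58 to 1.12 for RNU1-4, −0.83 to 0.28 for RNU1-28P, −0.28 to 0.32 for RNU1-11P, −0.60 to 1.01 for RNU1-13P, −0.47 to 1.91 for RNU1-14P and −0.54 to 2.03e-04 for RNU1-18P. They ran from −0.16 to 0.070 for RNU2-2P, −0.57 to 0.72 for RNU4-2, −0.48 to 0.45 for RNU4-1, −0.34 to 0.19 for RNU5E-1, −0.040 to 1.48 for RNU6-31P, −0.18 to 0.35 for RNU7-1, −0.32 to 0.45 for RNU11, −0.59 to 0.39 for RNU12, −0.47 to 0.0078 for RNU4ATAC and −0.34 to 0.44 for RNU105A. The labels do not say that the replicate numbers pair the libraries, and the deviations of same-numbered libraries had a Pearson's r of 0.127 over 16323 genes and −0.197 over the 31 members, genes not being independent replicates. The log2 ratios of the sums by U type kept their sign under each scaling and minimum total tried, with U6 at 0.92 and, with no minimum total, at 0.14. When 1 library was omitted those of U2, U4, U6, U7, U11, U12, U4atac and U105 changed sign, for example U4 (0.15) to −0.53 and U11 (0.11) to −0.32 on omission of Rg3 replicate 2. The cause of these differences was not tested. Depth limits RNU1-13P, RNU1-18P, RNU3P3, RNU6-31P and RNU7-1, each with under 100 counts per library.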
